A study of Mus musculus with 31 samples.

Results

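Angiogenic factors are secreted proteins that drive or restrain the growth of blood and lymphatic vessels. The 10 genes described here were taken by name from the count table: Vegfa, Vegfb, Vegfc, Figf (an older name of Vegfd), Pgf, Angpt1, Angpt2, Angptl2, Fgf2 and Hgf. All 10 had a row among the 24421 genes of the table, and all 10 were among the 14036 genes that passed the filter on low counts. They were measured by RNA sequencing in fibroblasts cultured from the hearts of C57Bl/6 mice aged 8 to 12 weeks. Fibroblasts make much of the matrix of that organ.

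The cells were held in a flat layer (2D), in a 3D arrangement, or in arrangements named in sequence, which are read here as their order. No time is stated for 2D, 3D, 3D-2D, 3D-2D-3D or 3D-2D-2D. The groups 2D-5days and 3D-5days carry a time of 5 days, and a flat substrate of stated stiffness was used for 2D-0.5kPa, for 2D-8kPa and also for 2D-64kPa. No group had a treatment or an altered gene. There were 3 libraries per group, and 2 of 3D-2D, which made 29 libraries in 10 groups. The number of mice behind a library is not given in the sources used here, so p-values measure the spread between libraries, which may be technical.

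The ligands of this set act mostly on endothelial cells. Vegfa signals through Kdr and Flt1, Vegfb and Pgf bind Flt1, and Vegfc and Figf bind Flt4 and are known for lymphatic growth. Angpt1 activates the receptor Tek, and Angpt2 binds the same receptor and can block that signal. Angptl2 is a related secreted protein that does not bind Tek, Fgf2 acts through the FGF receptors with heparan sulphate, and Hgf acts through Met after it has been cut by a protease. Fibroblasts of the heart lie next to capillaries and are a known source of several of these factors.

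The windows upstream of the start site are shown for Vegfa, whose levels spanned the narrowest range of the 10 genes, for Figf, whose levels spanned the widest, and for Vegfb and Hgf, which rose in 3D. They are the 250 bases before the RefSeq start site on GRCm38.p6, read 5′ to 3′ on the strand of the gene, and capitals mark matches to the motifs searched. Vegfa, Pgf and Hgf had 2 windows each, and only the window farthest 5′ of the gene was used.
Vegfa, chr17:46032378-46032627, minus strand: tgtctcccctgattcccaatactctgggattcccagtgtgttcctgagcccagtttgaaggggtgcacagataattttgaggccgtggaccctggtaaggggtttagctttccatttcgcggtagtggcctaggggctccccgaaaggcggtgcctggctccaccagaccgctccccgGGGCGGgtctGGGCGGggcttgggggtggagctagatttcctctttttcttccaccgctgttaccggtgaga
Vegfb, chr19:6987652-6987901, minus strand: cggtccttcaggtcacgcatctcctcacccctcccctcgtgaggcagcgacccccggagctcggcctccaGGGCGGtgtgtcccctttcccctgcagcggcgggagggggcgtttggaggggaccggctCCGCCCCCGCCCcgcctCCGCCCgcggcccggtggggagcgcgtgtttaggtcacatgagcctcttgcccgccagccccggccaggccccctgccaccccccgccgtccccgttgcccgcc
Figf, chrX:164373272-164373521, plus strand: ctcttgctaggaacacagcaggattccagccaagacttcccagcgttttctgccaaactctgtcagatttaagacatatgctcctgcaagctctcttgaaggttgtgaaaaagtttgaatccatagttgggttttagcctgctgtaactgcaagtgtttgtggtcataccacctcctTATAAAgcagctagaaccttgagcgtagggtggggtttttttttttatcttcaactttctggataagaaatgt
Hgf, chr5:16553245-16553494, plus strand: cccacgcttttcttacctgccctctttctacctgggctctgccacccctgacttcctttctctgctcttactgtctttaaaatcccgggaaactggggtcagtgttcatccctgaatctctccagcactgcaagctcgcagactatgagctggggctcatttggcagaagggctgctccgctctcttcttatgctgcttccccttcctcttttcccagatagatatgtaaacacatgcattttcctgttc

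These windows differed in base content. The Vegfb window was 76.4% G and C with 26 CpG pairs, that of Vegfa 59.2% with 11, that of Hgf 50.8% with 4, and that of Figf 42.4% with 2. The median of 32851 RefSeq windows of this length was 52.4%, with 6 CpG pairs. Of the 8 genes with a window (no entry for Angpt1 and Angpt2), 6 held the GC box GGGCGG on either strand, against 32.7% of all windows. The Vegfb window had 4 GC boxes, none of which overlap, and that of Vegfa had 2. The letters TATAAA were found in the Figf window alone among the 8, starting at position -73 from the start site, and in 12.4% of all windows. None of the 8 windows held GGAATG (the TEAD motif, in 12.6% of all windows). Nor did any hold ACGTG (a form of the core of the hypoxia element, in 16.6%). TGANTCA (the AP-1 motif, in 6.75%) and the CArG box of SRF (in 1.47%) were absent too, and all were searched on both strands. GCGTG, another form of the hypoxia core, was not searched. Read on either strand, its letters stand in the windows of Vegfb and Hgf, and also in those of Pgf and Fgf2. A match is a description of the letters and not a binding site.

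Before the results, some libraries stood apart. Total gene counts per library ran from 8509987 to 29909400. In the groups with no stated time other than 3D-2D-2D, replicates 1 and 2 had Xist reads with next to no reads from Y-linked genes. Both kinds of read were present in the replicate 3 libraries of those groups, in 3D-2D-2D and at 5 days. On the substrates Xist had 1 to 7 counts per library and Y-linked genes were read. Figf is on the X chromosome. Values from subsets of the libraries are given below for 3D against 2D, for 3D-2D-3D against 3D and at 5 days. Where a subset leaves 1 library per group, that library is assumed to vary like those of the other groups. Such fits count among the alternative settings, but only log2 fold changes are given from them. The 10 fibroblast markers summed to between 17119 and 74666 CPM (reads of a gene scaled to the adjusted size of its library), and none of them was at 0 in any library. Markers of lymphocytes were near 0. The 15 macrophage markers summed to 8799, 6169.9 and 223 CPM in the 3D libraries and to between 1227 and 1509 in 2D. In these bulk samples, fewer cells of a type and less RNA per cell cannot be told apart.

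**Figure D1:**
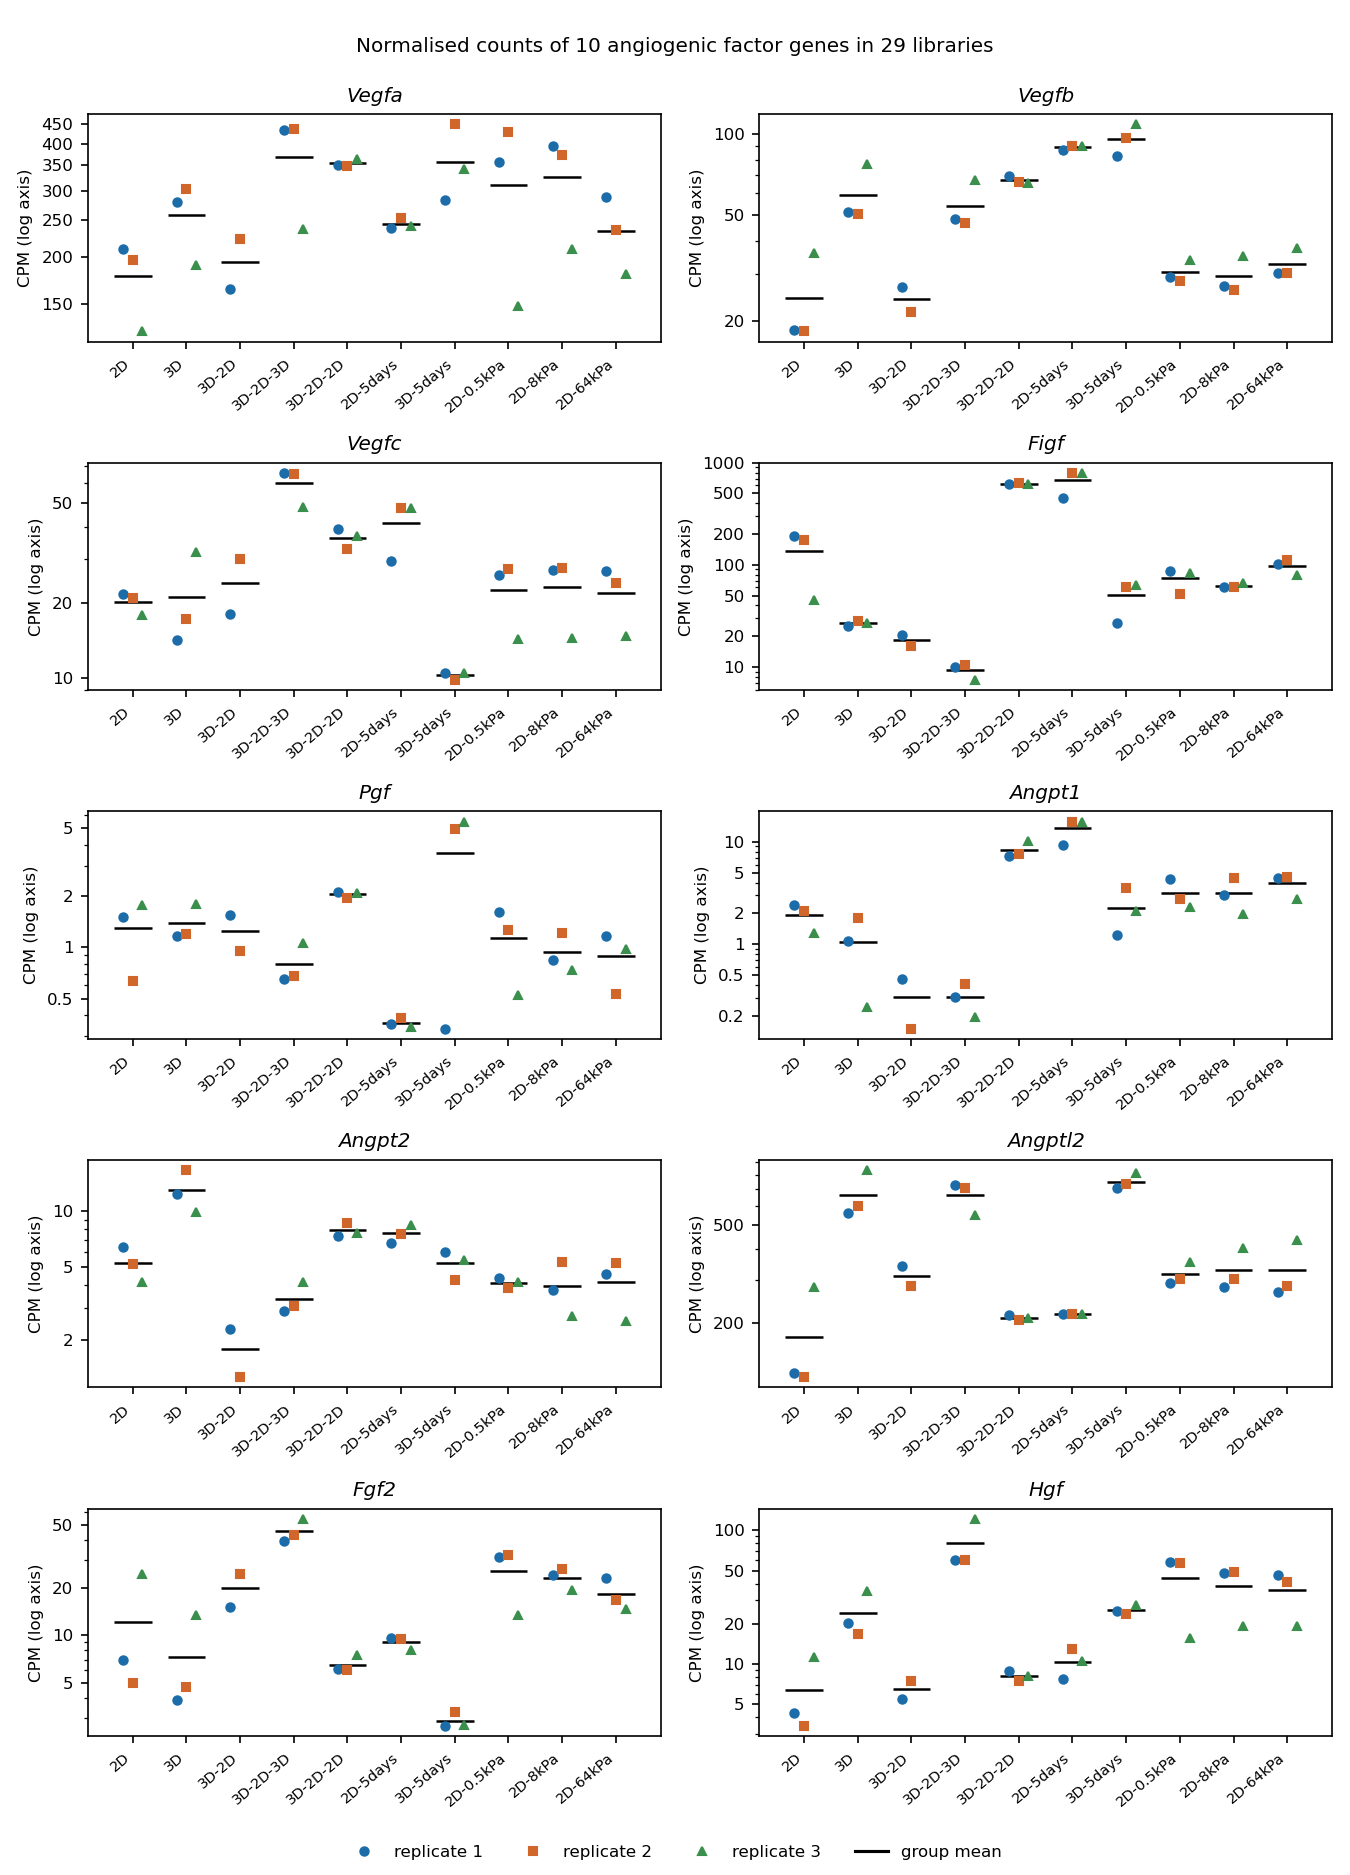
Normalised counts (CPM, log axis) of the 10 genes in each of the 29 libraries by group; symbols mark the replicate number and bars the group mean. Figf ran from 677 CPM in 2D-5days to 9.30 in 3D-2D-3D, while the means of Vegfa stayed between 178 and 369 CPM.

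In 3D, Vegfb, Angpt2, Angptl2 and Hgf rose against 2D and Figf fell. That is 4 higher and 1 lower of 10 genes, in a comparison in which 54% of all genes tested were called, 26.7% higher and 27.3% lower. The median log2 fold change was 0.31 over the 10 genes and 0.03 over all genes tested. A call is an adjusted p under 0.05 in edgeR's quasi-likelihood test. The ranges of the libraries did not overlap for 5 of the 10 genes and for 56.3% of all genes.

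Cells moved from 3D to 2D were set against both earlier groups. Against 3D, Vegfb, Angpt1, Angpt2, Angptl2 and Hgf fell in 3D-2D and Fgf2 rose, 5 lower and 1 higher where 56.5% of all genes were called (28.8% higher, 27.7% lower), and the median was -0.83 over the 10 genes against -0.02 over all. In the same comparison 11 of 15 macrophage markers were lower and none higher, and 8 of 14 endothelial markers were lower and 1 higher. Their part in the changes of the 10 genes was not tested. Against 2D itself, Angptl2 rose and Figf, Angpt1 and Angpt2 fell in 3D-2D, where 14.4% of all genes were called (6.85% higher, 7.54% lower). The medians were -0.02 for the 10 genes and 0.01 for all. Both comparisons use the 3D-2D libraries, and the first uses the same 3D libraries as 3D against 2D, so opposite signs in those comparisons are not independent. The comparison with 2D kept 1 called gene of the 10, Figf, without replicate 2 of 3D-2D and none when only the 2D and 3D-2D libraries were fitted.

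After a return to 3D, 6 of the 10 genes rose against 3D-2D and none was called lower. They were Vegfa, Vegfb, Vegfc, Angpt2, Angptl2 and Hgf, in a comparison with 49.2% of all genes called, 24.2% higher and 25% lower. The median was 1.01 over the 10 genes and 0.01 over all genes. The same 3D-2D libraries serve in the comparison of 3D-2D with 3D, so opposite signs there are not independent. The 3D-2D-3D libraries also differed from the 3D libraries, with Vegfc, Fgf2 and Hgf higher and Figf, Angpt1 and Angpt2 lower, where 23% of all genes were called (11.2% higher, 11.8% lower). With the replicate block 4 of those 6 genes were called, and 1587 genes in place of 3227 over the table. The median there was -0.07 over the 10 genes and 0.02 over all. Markers of other cells moved too: all 15 macrophage markers were lower (median -4.51), and 9 of 14 endothelial markers were lower and 2 higher (median -1.99). Their part was not tested. With replicates 1 and 2 alone all 6 genes were called. In replicate 3 the macrophage sums were 223 CPM in 3D and 257 in 3D-2D-3D. A fit of replicate 3 alone leaves 1 library per group, so only its log2 fold changes are given. Figf was at -1.86 (-1.531 with all libraries), Hgf at 1.78 (1.73) and Fgf2 at 2.02 (2.62). Smaller values were found for Angpt2 at -1.28 (-1.957), Vegfc at 0.60 (1.502) and Angpt1 at -0.32 (-1.75). All 6 genes kept their sign.

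Cells returned to 3D were set against cells kept in 2D, 3D-2D-2D. Angptl2, Fgf2 and Hgf were higher in 3D-2D-3D and Figf, Angpt1 and Angpt2 lower, 3 in each direction, where 40.4% of all genes were called (19.8% higher, 20.6% lower). The median was -0.13 over the 10 genes and -0.01 over all genes. All 6 kept their call under each of the 15 alternative settings run for that comparison. Among those settings, the summing of the most alike libraries kept the libraries of 3D-2D-2D separate, though these were alike too. In the 5-day cultures Pgf and Angptl2 rose in 3D and Vegfc, Figf, Angpt1 and Fgf2 fell, 2 higher and 4 lower where 32.4% of all genes were called (14.9% higher, 17.5% lower). The median was -0.21 over the 10 genes and 0.00 over all.

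Scaling by library totals alone, in place of TMM factors, moved the median of all genes by 0.13 in 3D against 2D, by -0.14 in 3D-2D against 3D, by 0.23 in 3D-2D-3D against 3D-2D-2D and by 0.13 in the 5-day comparison. It moved the share of higher among called genes from 49.0% to 71.5% in 3D-2D-3D against 3D-2D-2D, from 46.1% to 60.8% at 5 days and from 48.5% to 38.4% in 3D-2D-3D against 3D. Of the called values of the 10 genes, none changed sign under either other scaling.

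**Figure D2:**
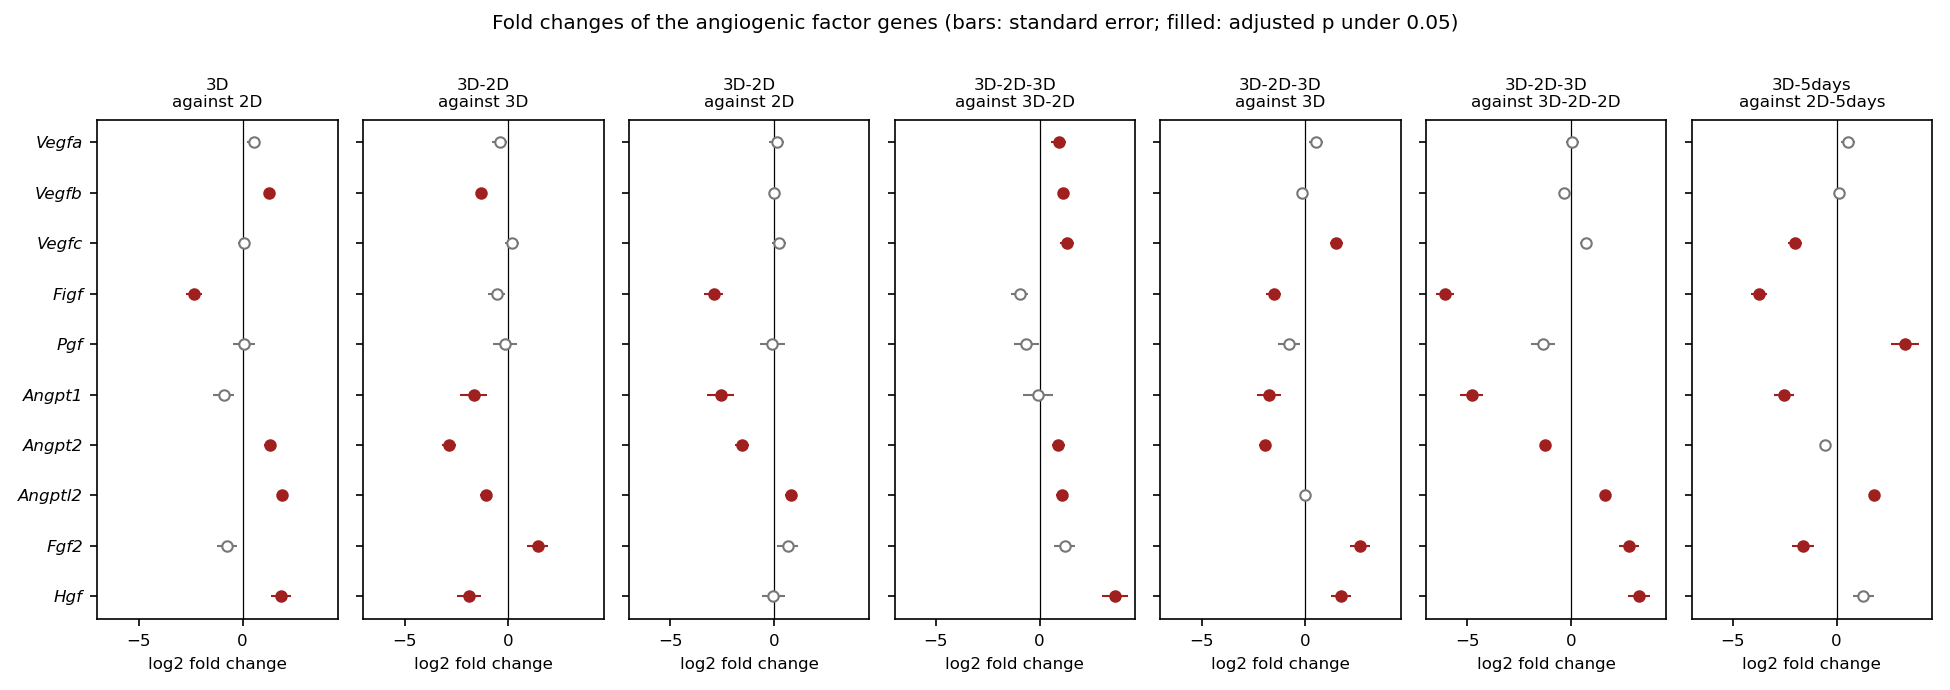
Log2 fold changes of the 10 genes in 7 comparisons, with bars for the standard error; filled red points have an adjusted p under 0.05. Figf lies to the left in every comparison, from -0.56 in 3D-2D against 3D, which was not called, to -6.07 in 3D-2D-3D against 3D-2D-2D.

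Vegfa, the main growth factor of blood vessels, varied least. Its libraries read 209.9, 197 and 127 CPM in 2D, 279, 303 and 190.3 in 3D, 164 and 224 in 3D-2D, and 434, 437 and 237 in 3D-2D-3D. They read 350.5, 349 and 364 CPM in 3D-2D-2D, 239, 253 and 241 in 2D-5days, and 282, 449 and 343 in 3D-5days. Replicate 3 was the lowest library of its group in 2D, 3D and 3D-2D-3D. Ordered by their means, each group overlapped the next in all 9 neighbouring pairs, and the highest mean (3D-2D-3D, 369 ± 115 CPM, SD, n = 3) was 2.08 times the lowest (2D, 178 ± 44.6, n = 3).

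The only comparison in which Vegfa passed the test was 3D-2D-3D against 3D-2D, with a log2 fold change of 0.93 ± 0.37 (SE) and an adjusted p of 0.0402, and this call was lost in 6 of 14 alternative settings, among them without any single library of 3D-2D and without replicate 1 or 2 of 3D-2D-3D. Against 2D, the 3D libraries differed by 0.54 ± 0.32, adjusted p = 0.163. With the replicate number as a block in a fit of those groups alone, the same difference was 0.55 ± 0.09 and passed (adjusted p = 0.0188). At 5 days it was 0.55 ± 0.32 (adjusted p = 0.202), and 0.56 ± 0.12 with the block (adjusted p = 0.00366). In a fit of the 5-day groups alone without the block it was 0.59 (adjusted p = 0.0491).

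Vegfb, a ligand of Flt1 linked to fatty acid uptake in the heart, read 18.6, 18.4 and 36.1 CPM in 2D, and 51.2, 50.05 and 76.9 in 3D. All 3D libraries were above all 2D libraries, and replicate 3 was the highest of each group. The log2 fold change was 1.27 ± 0.21, adjusted p = 3.6e-05. It was 1.45 and called with replicates 1 and 2, and 1.11 with replicate 3 alone. The macrophage markers summed to 223 CPM in the 3D library and 1509 in the 2D library of replicate 3.

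In 3D-2D the 2 libraries of Vegfb were back at 26.9 and 21.7 CPM, lower than 3D by -1.29 ± 0.25 (adjusted p = 0.000136) and overlapping those of 2D. In 3D-2D-3D they stood at 48.1, 46.7 and 67.2 CPM, higher than 3D-2D by 1.15 ± 0.24 (adjusted p = 0.000466). Vegfb thus passed the test at each change of arrangement from 2D to 3D, from 3D to 3D-2D and from 3D-2D to 3D-2D-3D. Neighbouring comparisons in that row share the 3D or the 3D-2D libraries, so these passes are not independent. Its highest levels were in the 5-day cultures, with 86.6, 90.4 and 89.9 CPM in 2D-5days and 82.7, 96.8 and 108 in 3D-5days, which overlapped and differed by 0.11 ± 0.21 (adjusted p = 0.735). Cells kept in 2D after 3D-2D read 69.5, 66.1 and 65.7 CPM, overlapping those of 3D-2D-3D.

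Vegfc and Figf are the ligands of Flt4. Vegfc read 21.7, 20.8 and 17.9 CPM in 2D and 14.3, 17.2 and 31.8 in 3D, which overlapped. It was highest in 3D-2D-3D, at 65.9, 65.5 and 48.4 CPM, above the 18.1 and 29.9 of 3D-2D by a log2 fold change of 1.32 ± 0.35 (adjusted p = 0.00311) and above 3D by 1.502 ± 0.30 (adjusted p = 0.0013). The difference from 3D was 1.54 and not called with the replicate block (adjusted p = 0.0867), and 0.60 with replicate 3 alone. In the 5-day groups Vegfc read 29.3, 47.9 and 47.7 CPM in 2D-5days and 10.5, 9.85 and 10.5 in 3D-5days. Here the 3D libraries were all below those of 2D, by -2.02 ± 0.32 (adjusted p = 4.41e-05). With replicates 2 and 3 alone the difference was -2.23 and called, and with replicate 1 alone it was -1.47. The predicted gene Gm33153 overlaps Vegfc in RefSeq.

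Figf had the widest span of the 10 genes, 72.8 times between group means. It read 192, 175 and 45.1 CPM in 2D, 25.2, 28.4 and 26.9 in 3D, 20.3 and 16.0 in 3D-2D, and 9.96, 10.5 and 7.45 in 3D-2D-3D. The 3 libraries of 3D-2D-2D stood far above these at 625, 629 and 619 CPM, and those of 2D-5days at 452, 792 and 788. In 3D-5days they were 26.8, 61.1 and 63.3 CPM. Every group with a 3D arrangement last was below its flat counterpart.

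The fall of Figf in 3D against 2D was -2.35 ± 0.38 on the log2 scale (adjusted p = 2.46e-05). It rested on replicates 1 and 2: with these alone it was -2.77, and with replicate 3 alone -0.72, the 2D library of that number having the lowest reading of its group. Figf did not return to its 2D level in 3D-2D, where it was lower than in 2D by -2.91 ± 0.46 (adjusted p = 0.000445). The largest fold change of any of the 10 genes was that of Figf in 3D-2D-3D against 3D-2D-2D, -6.07 ± 0.45 (67.2-fold lower, adjusted p = 1.36e-09). At 5 days the fall was -3.75 ± 0.40 (13.4-fold, adjusted p = 2.67e-07), and with replicates 2 and 3 alone it was -3.67 and called. With replicate 1 alone it was -4.06.

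Figf and Angpt1 were both highest in 3D-2D-2D and 2D-5days, and some marker lists were high in the same groups. The fibroblast markers summed to between 68554.5 and 74666 CPM in 3D-2D-2D and between 37980.3 and 63995 in 2D-5days, and reached 52554 in 3D-5days and 39501 in 2D, so that 2D-5days overlapped other groups. The 8 pericyte and smooth muscle markers summed to between 408 and 433 CPM and between 364 and 436 CPM there, against at most 307 in the other groups. Epicardial and mesothelial markers, 8 genes, summed to between 82.3 and 87.1 CPM in 3D-2D-2D and between 6.999 and 20.6 in 3D-2D-3D, with up to 2 and 1 of them at 0. They summed to between 27.4 and 35.8 CPM in 2D-5days and between 0.298 and 1.78 in 3D-5days, where 4 to 6 of the 8 were at 0. In 2D the sums were 27.4 to 28.7 CPM, which overlapped 2D-5days. In 3D-2D they were higher than in 2D-5days, at 44.8 to 50.5 CPM, though Figf (mean 18.1 CPM) and Angpt1 (mean 0.305) were low there. The part of these markers in the levels of Figf and Angpt1 was not tested.

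Pgf, a ligand of Flt1, had the fewest reads of the 10 genes, with 3 to 59 counts per library. Outside the 5-day groups its libraries lay between 0.527 and 2.11 CPM. In 2D-5days they read 0.355, 0.386 and 0.339 CPM, from 3 counts each. In 3D-5days replicate 1 read 0.334 CPM, also from 3 counts, and replicates 2 and 3 read 4.92 and 5.47 CPM, from 59 and 55 counts. Replicate 1 thus lay just under the flat cultures, and the other libraries were far above.

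The log2 fold change of Pgf at 5 days was 3.30 ± 0.68 (adjusted p = 0.000674), 3.82 with replicates 2 and 3 alone, and -0.07 with replicate 1 alone. In fits of the 5-day groups alone Pgf did not pass the filter on low counts. The ratio of pooled Pgf counts, scaled by library size, was 10.5 (95% exact interval 5.35 to 23.6, counting error only). It was 14.3 (6.39 to 39.9) over replicates 2 and 3 and 0.941 (0.126 to 7.02) in replicate 1. Endothelial markers moved with these libraries: Cdh5, the cadherin of endothelial junctions, read 1.89, 34.8 and 37.7 CPM in the 3D-5days libraries and 0.118, 2.57 and 3.16 in 2D-5days, and Pecam1 read 0.778, 13.1 and 14.6 and 0.118, 1.54 and 1.24.

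Of 14 endothelial markers tested at 5 days, 10 rose and 1 fell in 3D, where 14.9% of all genes rose and 17.5% fell, and 3 of 15 macrophage markers rose. Their summed level ran from 137 to 174 CPM in 2D-5days, with up to 2 markers at 0, and from 133 to 149 in 3D-5days with none at 0, since Ptprb, the most abundant of them in 2D-5days, went from between 94.0 and 125 CPM to between 6.01 and 7.06. The part of these markers in the rise of Pgf was not tested.

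**Figure D3:**
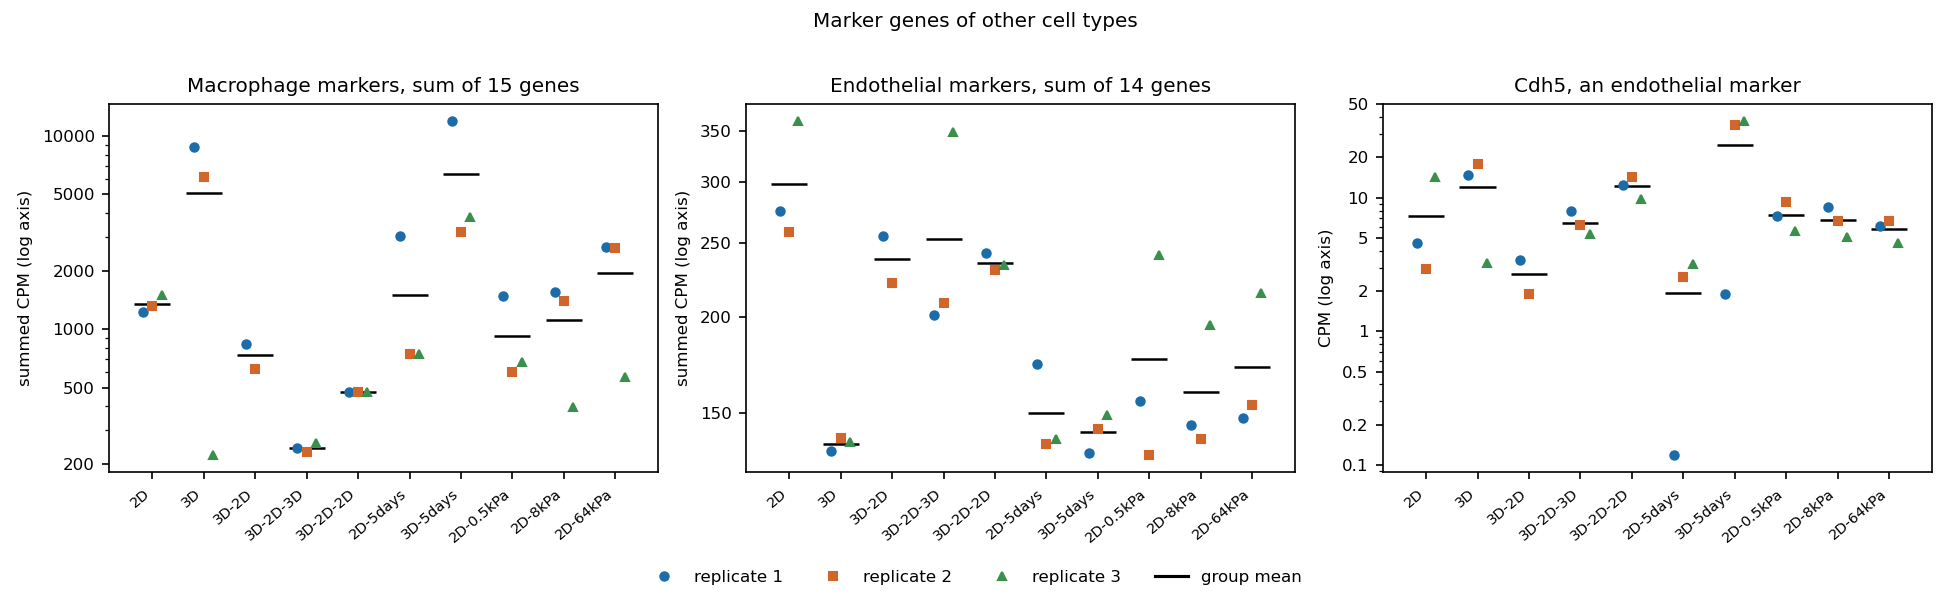
Summed CPM of 15 macrophage markers and of 14 endothelial markers, and CPM of Cdh5, in each library by group (log axes); symbols mark the replicate number and bars the group mean. In 3D-5days, replicate 1 had the highest macrophage sum of all libraries and Cdh5 at 1.89 CPM, against 34.8 and 37.7 in the other libraries of that group.

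The angiopoietins act on Tek. Angpt1 read 2.41, 2.13 and 1.28 CPM in 2D and 1.07, 1.81 and 0.243 in 3D, which overlapped, and the difference of -0.90 ± 0.51 was not called (adjusted p = 0.139). With replicate 3 alone it was -2.34. Angpt1 was near its floor in 3D-2D, with 11 and 3 counts, and in 3D-2D-3D, with 9, 9 and 6 counts, or 0.307, 0.409 and 0.194 CPM. In 3D-2D-2D it read 7.33, 7.59 and 10.3 CPM. The difference of 3D-2D-3D from 3D-2D-2D was -4.79 ± 0.56 (27.7-fold lower, adjusted p = 6e-07).

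At 5 days Angpt1 read 9.34, 15.6 and 15.7 CPM in 2D and 1.22, 3.51 and 2.09 in 3D, a fall of -2.55 ± 0.49 (adjusted p = 0.00032) with no overlap. It was called with replicates 2 and 3 alone (-2.47), and with replicate 1 alone it was -2.91. The 3D-2D libraries were below 2D by -2.57 ± 0.66 (adjusted p = 0.0131) and below 3D by -1.67 ± 0.67 (adjusted p = 0.0373). That last call was lost in 5 of 14 alternative settings, and over all 14 the value ran from -2.69 to -0.98. The call of Angpt1 in 3D-2D-3D against 3D (-1.75 ± 0.57, adjusted p = 0.0294) was lost in 8 of 16, among them the fit with the replicate block (-1.61, adjusted p = 0.0943) and the fit without replicate 2 of 3D (-1.05). The noncoding gene Gm41313 lies within Angpt1.

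Angpt2 followed another course. Its libraries read 6.41, 5.21 and 4.14 CPM in 2D and 12.4, 16.8 and 9.96 in 3D, a rise of 1.32 ± 0.27 (adjusted p = 0.000274) with no overlap. It was 1.33 and called with replicates 1 and 2, and 1.29 with replicate 3 alone. In 3D-2D the libraries read 2.30 and 1.25 CPM, lower than 3D by -2.86 ± 0.34 (7.26-fold, adjusted p = 3.36e-07) and lower than 2D by -1.54 ± 0.33 (adjusted p = 0.00377). Levels thus fell below those of cells that the labels place in 2D alone.

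In 3D-2D-3D Angpt2 read 2.86, 3.04 and 4.13 CPM, above 3D-2D by 0.90 ± 0.32 (adjusted p = 0.0226), though below 3D by -1.957 ± 0.27 (adjusted p = 3.76e-05). The call of the rise from 3D-2D was lost in 5 of 14 alternative settings, among them without replicate 3 of 3D-2D-3D (0.70). Over all 14 the value ran from 0.54, without replicate 2 of 3D-2D, to 1.40. In 3D-2D-2D Angpt2 read 7.33, 8.70 and 7.64 CPM, all above 3D-2D-3D (-1.23 ± 0.27 for 3D-2D-3D against it, adjusted p = 0.000947). At 5 days it read 6.74, 7.58 and 8.48 CPM in 2D and 6.01, 4.26 and 5.47 in 3D, and the difference of -0.54 ± 0.28 was not called (adjusted p = 0.148). In RefSeq all of Angpt2 lies within the span of Mcph1. The receptor Tek, also counted as an endothelial marker, had means of 18.8 CPM in 2D, 31.8 in 3D and 3.98 in 3D-2D.

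Angptl2 rose in every 3D group against its flat counterpart. It read 125, 120.4 and 280.4 CPM in 2D and 559, 598 and 835 in 3D. The groups were apart, with replicate 3 the highest of each. The log2 fold change was 1.92 ± 0.25 (3.78-fold, adjusted p = 1.57e-06). With replicates 1 and 2 it was 2.24 and called, and with replicate 3 alone it was 1.59. In 3D-2D the libraries read 340.0 and 283 CPM, below 3D by -1.09 ± 0.28 (adjusted p = 0.00238).

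Those 3D-2D levels of Angptl2 were above 2D by 0.83 ± 0.27 (adjusted p = 0.0417), a call lost in 7 of 14 alternative settings, and replicate 3 of 2D lay just under the lower 3D-2D library. In 3D-2D-3D it read 728, 709.6 and 549 CPM, and in 3D-2D-2D 215, 205 and 209.7, a difference of 1.66 ± 0.25 (3.15-fold, adjusted p = 1.59e-05). The 5-day libraries read 218, 217.5 and 217 CPM in 2D and 705, 733 and 816 in 3D, 1.79 ± 0.25 higher (3.45-fold, adjusted p = 8.5e-06). This difference was called with replicates 2 and 3 alone (1.83), and with replicate 1 alone it was 1.71. Angptl2 stood at like means in 3D (664 ± 149 CPM, SD, n = 3), 3D-2D-3D (662 ± 98.4, n = 3) and 3D-5days (751 ± 57.7, n = 3), whose ranges overlapped in the order of means. It lies within the span of Ralgps1 in RefSeq.

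Fgf2, which leaves cells without a signal peptide and acts on FGF receptors, read 6.99, 4.97 and 24.5 CPM in 2D and 3.91, 4.68 and 13.4 in 3D. Replicate 3 was the highest of both groups, which overlapped, and the difference of -0.75 ± 0.46 was not called (adjusted p = 0.176). In 3D-2D it read 15.1 and 24.5 CPM, above 3D by 1.42 ± 0.50 (adjusted p = 0.0203). That call was lost in 5 of 14 alternative settings, among them without replicate 1 or 2 of 3D and in a fit of those groups alone. Over all 14 the value ran from 1.03 to 2.20. Against 2D the 3D-2D libraries differed by 0.67 ± 0.50, which was not called (adjusted p = 0.393), and without replicate 3 of 2D the difference was 1.73 and called (adjusted p = 0.00914). In 3D-2D-3D Fgf2 read 39.5, 42.9 and 54.4 CPM, its highest group, above 3D by 2.62 ± 0.48 (6.16-fold, adjusted p = 0.000555).

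Cells kept in 2D instead read 6.07, 6.00 and 7.46 CPM of Fgf2, below 3D-2D-3D by a factor of 6.99 (2.80 ± 0.49 on the log2 scale, adjusted p = 0.000103). At 5 days the sign was opposite to that, and the same as in 3D against 2D with no stated time (-0.75, not called). Fgf2 read 9.57, 9.38 and 8.02 CPM in 2D-5days and 2.67, 3.26 and 2.69 in 3D-5days (-1.64 ± 0.53, adjusted p = 0.0222). That call was lost in 6 of 16 alternative settings, among them replicates 2 and 3 alone (-1.54). Over all 16 the value ran from -1.82, with replicate 1 alone, to -1.51. The gene Nudt6 shares 5125 bases with Fgf2 on chromosome 3, and Nudt6 had the group means most like those of Fgf2 among 9139 genes compared (Pearson's r of 0.991 over 10 groups). The strand setting of the counting is not given in the sources used here, so reads of the overlap cannot be told apart.

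Hgf, the ligand of Met, read 4.33, 3.47 and 11.3 CPM in 2D and 20.4, 16.8 and 35.3 in 3D. The 3D libraries were all above those of 2D, with a log2 fold change of 1.87 ± 0.50 (3.65-fold, adjusted p = 0.00323). The value was 2.25 and called with replicates 1 and 2, and 1.66 with replicate 3 alone. In 3D-2D the libraries read 5.51 and 7.48 CPM, below 3D by -1.90 ± 0.57 (adjusted p = 0.00778) and overlapping 2D.

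In 3D-2D-3D Hgf read 59.7, 59.9 and 122 CPM, above 3D-2D by 3.63 ± 0.62 (12.4-fold, adjusted p = 4.87e-05). This was its highest group, above 3D by 1.73 ± 0.47 (adjusted p = 0.0111), a call lost in 6 of 16 alternative settings, and over all 16 the value ran from 1.28 to 2.10. Cells kept in 2D read 8.84, 7.47 and 8.19 CPM, which 3D-2D-3D exceeded by 3.29 ± 0.52 (9.81-fold, adjusted p = 3.22e-05). The macrophage markers summed to between 232 and 257 CPM in 3D-2D-3D and to between 472 and 476 in 3D-2D-2D, and their part in the level of Hgf was not tested. At 5 days Hgf read 7.80, 12.98 and 10.6 CPM in 2D and 25.02, 23.8 and 27.5 in 3D. The groups were apart, but the difference of 1.28 ± 0.50 was not called (adjusted p = 0.0562). With the replicate block it was 1.33 ± 0.16 and passed (adjusted p = 5.71e-05), as it did in a fit of the 5-day groups alone without the block (1.32, adjusted p = 0.00305).

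**Figure D4:**
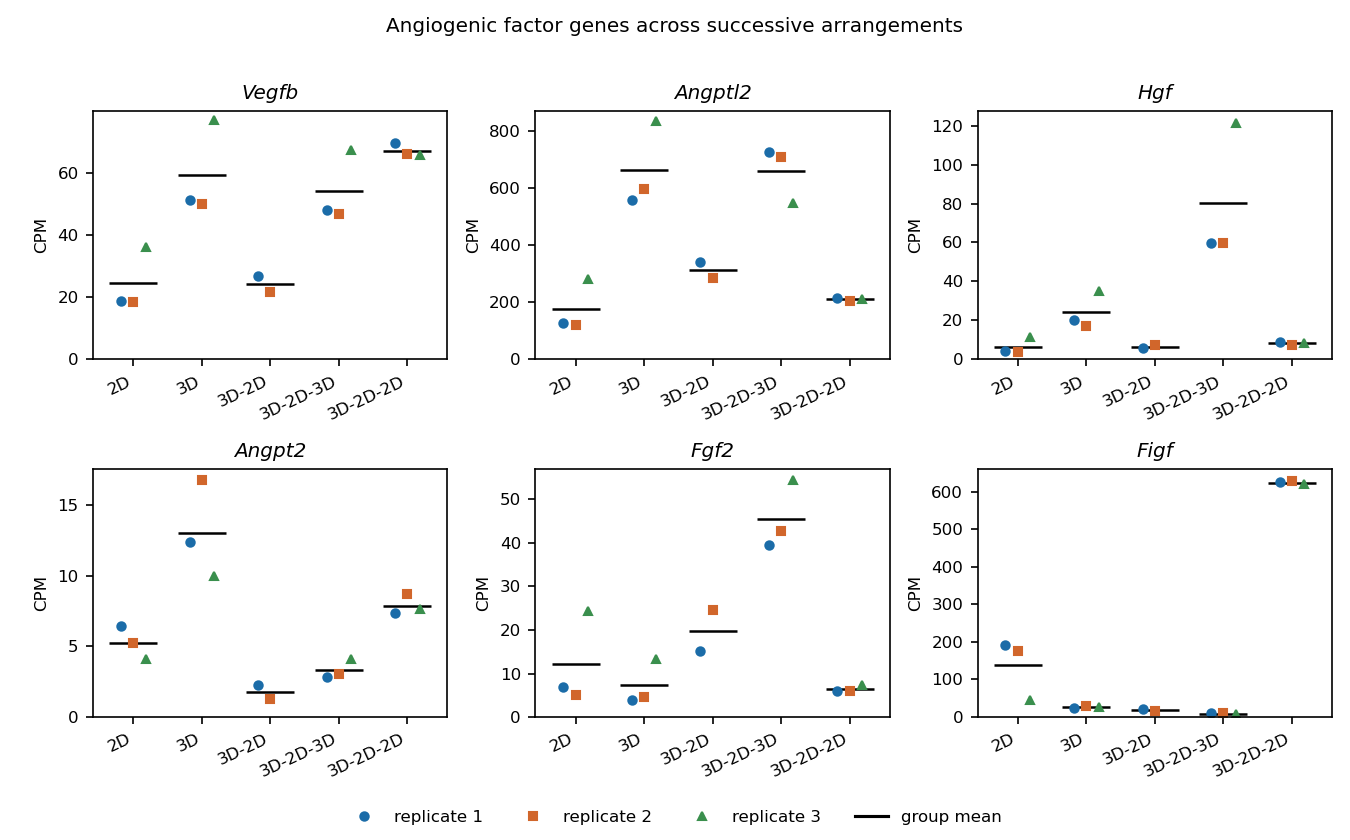
CPM of 6 of the genes in each library of the groups with no stated time; symbols mark the replicate number and bars the group mean. Vegfb, Angptl2 and Hgf were higher in 3D and in 3D-2D-3D than in 3D-2D, while Figf was highest in 3D-2D-2D.

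The difference between 3D and 2D was tested for whether it was the same at 5 days as in the groups with no stated time. It differed for 4 of the 10 genes, 1 higher and 3 lower at 5 days, where 25.5% of all genes were called (12.3% higher, 13.2% lower). The median was -1.03 over the 10 genes and -0.03 over all genes. For Vegfb the difference between 3D and 2D was 1.27 with no stated time and 0.11 at 5 days, for Vegfc 0.07 and -2.02, for Angpt2 1.32 and -0.54, and for Pgf 0.07 and 3.30. The Pgf call was lost in a fit of those 4 groups alone, without the replicate block (3.22) and with it (2.90). Under the block, Fgf2 passed (-1.04, adjusted p = 0.0408). For Angptl2 the differences were 1.92 and 1.79, and the change between them of -0.13 ± 0.34 was not called (adjusted p = 0.834, approximate 95% interval -0.81 to 0.54).

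**Figure D5:**
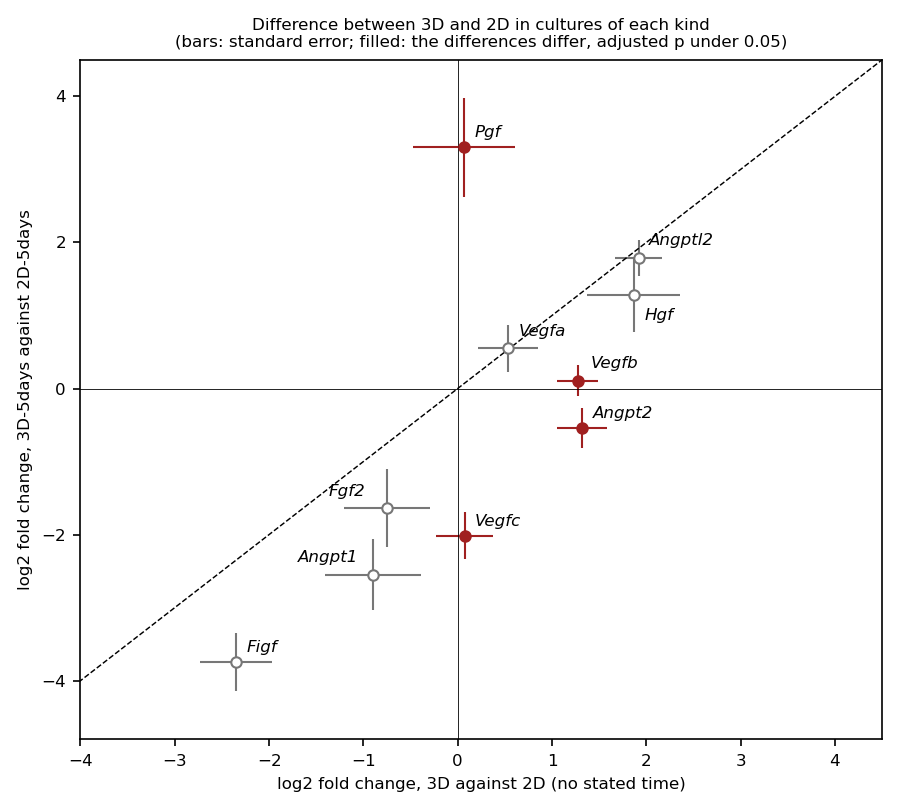
Log2 fold change of 3D against 2D in groups with no stated time (x axis) and at 5 days (y axis), with bars for the standard error; the dashed line marks equal values. Filled red points (Vegfb, Vegfc, Pgf and Angpt2) are genes whose difference itself passed the test, and Angptl2 lies close to the line at 1.92 and 1.79.

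Among the flat substrates of different stiffness, no difference passed the test in the fit without the replicate block. Of the 10 genes, 0 were called in each of the 3 comparisons among 0.5, 8 and 64 kPa by edgeR's quasi-likelihood test and 0 by DESeq2, and 0% of all genes were called. At an unadjusted p under 0.05 there were 0 of the 10 genes in each comparison, and 82, 175 and 241 of all genes in 8 against 0.5, 64 against 0.5 and 64 against 8 kPa. The differences of the 10 genes ran from -0.50 to 0.64 on the log2 scale.

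The least and greatest of these differences were those of Fgf2 in 64 against 0.5 kPa (-0.50 ± 0.46, approximate 95% interval -1.40 to 0.39) and Figf in 64 against 8 kPa (0.64 ± 0.36, -0.07 to 1.35). For Figf in that pair alone the libraries did not overlap, at 60.2, 60.7 and 66.2 CPM on 8 kPa and 101, 111 and 79.7 on 64 kPa. Vegfa read 358, 429 and 148 CPM on 0.5 kPa, 394, 374 and 209.6 on 8 kPa, and 289, 236 and 179.9 on 64 kPa. Replicate 3 was the lowest library of Vegfa on each substrate, and it was also the lowest for Vegfc, Angpt1, Fgf2 and Hgf on each. For Vegfb and Angptl2 it was the highest on each. With the replicate block, Vegfa on 64 against 8 kPa was -0.44 ± 0.07 and passed (adjusted p = 0.0177), in a fit that called 608 of all genes.

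Hgf on the substrates read 58.3, 57.2 and 15.6 CPM at 0.5 kPa, 47.6, 49.2 and 19.2 at 8 kPa, and 46.3, 41.2 and 19.4 at 64 kPa. Fgf2 read 31.3, 31.9 and 13.4 CPM, 24.1, 26.1 and 19.3, and 23.0, 16.6 and 14.7 in the same order. The groups overlapped on every substrate for both genes. Angptl2 lay between 267 and 435 CPM, Vegfb between 26.1 and 37.5, Angpt1 between 1.98 and 4.55 and Angpt2 between 2.55 and 5.32 over the 9 substrate libraries.

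Other genes of these pathways were read from fixed lists, whose counts in 3D against 2D stand beside 26.7% higher and 27.3% lower over all genes tested, 54% in all. Of 14 receptors and co-receptors tested, 5 rose and 4 fell in 3D against 2D (median 0.59 against 0.03 over all genes), a share of called genes near that of the table. Gpc1, a heparan sulphate proteoglycan, rose by 1.84 and Kdr by 1.22, while Sdc4 fell by 1.65 and Met, the receptor of Hgf, fell by 1.51 as Hgf rose. Met had means of 24.5 CPM in 2D, 8.62 in 3D, 26.2 in 2D-5days and 7.28 in 3D-5days, and it fell by 1.85 at 5 days too. Kdr, which is also an endothelial marker, had means between 0.439 and 4.03 CPM over the 10 groups.

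Among 10 genes of ligand activation and processing, 3 rose and 1 fell in 3D against 2D (median 0.19), where 54% of all genes were called. Plau, a protease that can activate Hgf, rose by 1.85, Spint2 and St14, an inhibitor of Hgf-activating proteases and such a protease, rose by 1.87 and 1.66, and Pcsk6, a proprotein convertase, fell by 1.69. Of 9 angiogenesis inhibitors, 3 rose and 4 fell (median -0.51), beside the same 54%: Vash1 rose by 2.93 and Col18a1, the source of endostatin, by 2.36, while Sema3a fell by 4.93 and Timp3 fell by 2.61. Vash1 rose by 3.67 at 5 days as well, and Timp3 fell by 4.02 there.

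Of 14 other angiogenic ligands, 1 rose and 5 fell in 3D against 2D (median 0.12), where 26.7% of all genes rose and 27.3% fell. Mdk rose by 3.10, Angptl1 fell by 4.01, Pdgfd fell by 2.31 and Apln fell by 1.52. Apln, the ligand of the apelin receptor, rose by 3.41 at 5 days, from a mean of 2.07 CPM in 2D-5days to 22.3 in 3D-5days. Of 14 genes of the hypoxia response, 2 rose and 4 fell (median 0.09), beside the same shares, with log2 fold changes of 1.60 for Egln3, -3.11 for Adm, -1.40 for Ndrg1 and -1.38 for P4ha1. Adm, a vasodilator peptide, had means of 153 CPM in 2D and 17.8 in 3D. At 5 days the counts higher and lower were 4 and 4 of the receptors, 2 and 2 of the activation genes, 2 and 4 of the inhibitors, 1 and 7 of the other ligands and 2 and 3 of the hypoxia genes, where 32.4% of all genes were called, 14.9% higher and 17.5% lower. In none of the 3 substrate comparisons was a gene of these lists called in the fit without the replicate block, which called no gene of the table. The block called 608 genes in 64 against 8 kPa and 2 in 8 against 0.5 kPa, and the lists were not counted under it.

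The group means of the 10 genes were compared with each other and with the rest of the table as a description. Over the 10 groups the log2 means of Figf and Angpt1 correlated at r = 0.944 and those of Figf and Angptl2 at -0.70. The genes whose means were most like those of Figf were Rbms3 (r = 0.989), Ms4a4d (0.986) and Adamts5 (0.976), for Angpt1 Il6st (0.985), Wisp2 (0.968) and Lpar1 (0.959), and for Angptl2 Plin2 (0.973), Acadl (0.969) and Ctsh (0.961). Vegfc was most like Slc4a2 (0.965), Angpt2 most like St3gal5 (0.954) and Hgf most like Arel1 (0.964). For Vegfa (Polm, 0.936) and Pgf (Slc4a4, 0.829) the closest genes were less alike. These points share libraries and depth, and the genes were picked as the highest of 9139 or 9140 values each.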

How the data were processed

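RNA sequencing gave 29 libraries. The authors deposited raw read counts per gene symbol, without normalization; the submitters' processing notes name TopHat, HTSeq, Bowtie, MACS2 and mm10, and neither the annotation nor whether counting used strand is given in the sources used here. A further 2 ATAC-seq libraries were not analysed here. HTSeq summary lines were left out. All libraries were fitted together in edgeR 4.0.16 (R 4.3.3, limma 3.58.1): filterByExpr, TMM factors (0.868 to 1.10), robust quasi-likelihood test, Benjamini-Hochberg adjustment over all genes, calls at an adjusted p under 0.05. A standard error is the absolute log2 fold change divided by the square root of F. CPM uses scaled library totals. The script was tested on simulated counts for 3D against 2D with 13676 genes: of 100 genes changed by 2 on the log2 scale 90 were recovered, and of 100 changed by 1, 57. Counts lack molecular identifiers, so exact intervals cover counting error only.

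The 10 genes, the gene lists and the comparisons were chosen with earlier results of these data known. The text names all 10 genes, up to 4 called genes per list with the largest changes in 3D against 2D, and the genes with the most similar group means (up to 3 per gene, mean log2 CPM of at least 3). The genes most like Vegfb are not reported here. Other named genes (Met, Vash1, Timp3, Apln, Adm and Kdr outside 3D against 2D, Tek, the markers Cdh5, Pecam1 and Ptprb, and overlapping genes) were chosen after their values were seen. The labels do not say what a replicate number shares. Deviations of same-numbered libraries correlated above 0.1 in all 3 pairs for 3D against 2D (0.141 to 0.232), 3D-2D-3D against 3D (0.196 to 0.300), the 5-day groups (0.288 to 0.572) and the substrates (0.191 to 0.753). Some libraries of unlike number correlated more. Replicate 1 of 3D did so with replicate 2 of 2D (0.165, against 0.141 with its own number). Replicate 2 of 3D-5days did so with replicate 3 of 2D-5days (0.317, against 0.288). These values therefore do not show that the numbers mark pairs. The main fit had no replicate block, which was used in alternative fits only. The alternatives were other scaling, filters, DESeq2 1.42.0, fits of the groups compared with and without the block, and leaving out libraries. Those chosen after seeing the data were the 5-day and substrate subsets and the summing of the most alike libraries. Replicates 1 and 2 were summed in 2D, 3D, 3D-2D, 3D-2D-3D and on each substrate, and replicates 2 and 3 in the 5-day groups. That left 1 library of 3D-2D. The libraries of 3D-2D-2D were not summed.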

Additional observations from a re-analysis of the deposited data

Results flagged for a closer look

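For 4 of the 10 genes the difference between 3D and 2D was not the same at 5 days as in the groups with no stated time, by a test of that difference itself in edgeR. For Vegfc the log2 difference at 5 days was lower by -2.09 ± 0.44 (SE, adjusted p = 0.00144), and for Angpt2 by -1.86 ± 0.39 (adjusted p = 0.00128). Both calls held in all 22 alternative settings run. For Vegfb it was lower by -1.16 ± 0.30 (adjusted p = 0.0065), a call lost with the most alike libraries summed (-1.13, adjusted p = 0.106). For Pgf it was higher by 3.23 ± 0.88 (adjusted p = 0.00957), and the libraries that carry this value are replicates 2 and 3 of 3D-5days, with 59 and 55 counts, while replicate 1 had 3 counts, as did each library of 2D-5days. The 5-day and the other groups also differ in their Xist and Y-linked reads, so time and origin of the libraries cannot be told apart.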

How the results depend on the processing

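Of 43 called values of the 10 genes over the comparisons, 19 kept their call in every alternative run, 23 lost it in at least 1 and 1 reversed: Pgf at 5 days was -0.071 with replicate 1 alone of both groups, a fit that takes its spread from the other groups. The number of the 10 genes called moved by over 1.5 times as follows. With the most alike libraries of a group summed, it went from 6 to 3 in 3D-2D against 3D, from 4 to 0 in 3D-2D against 2D, from 6 to 2 in 3D-2D-3D against 3D-2D, from 6 to 1 in 3D-2D-3D against 3D, and from 4 to 2 for the difference between the times, with fewer libraries in each fit. In 3D-2D against 2D it was 0 in a fit of those groups alone and 7 with the replicate block added, and in 64 against 8 kPa it went from 0 to 1 with the block. Fits of replicate 3 alone in 3D-2D-3D against 3D and of replicate 1 alone at 5 days leave 1 library per group, so their counts are not given. Leaving out each library in turn gave 5 to 6 in 3D against 2D, 4 to 6 in 3D-2D against 3D, 1 to 5 in 3D-2D against 2D (1 without replicate 2 of 3D-2D), 4 to 5 in 3D-2D-3D against 3D-2D, 4 to 6 in 3D-2D-3D against 3D, 6 to 7 in 3D-2D-3D against 3D-2D-2D, 5 to 6 at 5 days, 0 for each substrate pair and 4 to 5 for the difference between the times. The cause of these changes was not tested.

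Where all same-numbered libraries correlated above 0.1, the replicate block changed no other call than those given with the results. Where they did not, the block brought Vegfb, Fgf2 and Hgf past the threshold in 3D-2D against 2D, and Vegfa, Vegfc and Figf in 3D-2D against 3D. It also brought Figf, Pgf and Fgf2 past it in 3D-2D-3D against 3D-2D, and Vegfc and Pgf in 3D-2D-3D against 3D-2D-2D. The same-number correlations ran from -0.13 to 0.13 in these comparisons. Pgf at 5 days could not be fitted with the block, as it did not pass the filter on low counts in those groups alone. Over all genes, the count called in 3D-2D against 2D was 2019, and 523 in a fit of those groups alone, 6264 with the block, 3534 with replicates 1 and 2 only, 171 without replicate 2 of 3D-2D and 0 with the most alike libraries summed. In 3D-2D-3D against 3D it was 3227, and 1485 in a fit of those groups alone, 1587 with the block and 297 summed. At 5 days it was 4548, and 2991 in a fit of those groups alone and 2170 summed. With libraries summed it was 1042 of 3583 for the difference between the times, and it also fell in 3D-2D against 3D and in 3D-2D-3D against 3D-2D. Low counts limit Pgf and Angpt1, which had as few as 3 counts in a library.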
